A study of Homo sapiens with 12 samples.

Results

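The mammalian circadian clock is run by a small set of transcripts, and 10 of them were followed here through a course of blocked transcription. They were PER1, PER2, PER3, CRY1, CRY2, ARNTL, CLOCK, NR1D1, NR1D2 and BHLHE40, and they were taken from the table by symbol. All 10 symbols were found among the 26334 gene symbols of the count table, of which 18937 had a count in some library. Together they took 0.0205% of the counts at 0 h.

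The cells were shA673-1c, a derivative of the human Ewing sarcoma line A673 kept in medium with blasticidin and zeocin. All 4 groups had the same cells, and the groups at 1, 2 and 4 h had received 5 µM actinomycin D, an intercalator that stops RNA polymerases, for that long, while the group at 0 h had not. There were 3 biological replicates per time point and 12 poly(A)-selected, stranded libraries with 9147018 to 11194705 counts each (median 10107332). No untreated libraries of 1, 2 or 4 h stood beside them, so time in culture and the drug cannot be told apart. All libraries came from 1 line, the cells were not described as synchronised, and in bulk RNA fewer cells and less RNA per cell cannot be told apart.

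In the textbook loop, CLOCK and ARNTL (also called BMAL1) pair as a transcription factor that binds E-box elements and switches on the PER, CRY, NR1D and BHLHE40 genes. PER and CRY proteins accumulate, enter the nucleus and inhibit that pair. NR1D1 and NR1D2, the REV-ERB nuclear receptors, repress ARNTL, and BHLHE40 (DEC1) is a repressor that competes for E-boxes. A rhythm of this kind needs transcripts that disappear soon after their gene is switched off, and AU-rich elements in the 3′ untranslated region (3′ UTR) and the site of the Pumilio proteins are among the sequences known to speed mRNA loss.

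The labelled cell type was checked against markers. Of 10 Ewing sarcoma markers, 9 had a mean count of 10 or more and CD99 was listed at 0 in all 12 libraries, which is not read as absence of its RNA, since how reads were assigned to genes is not known here. In CPM, counts divided by the scaled library size in units of 1000000, their summed level was 2366 to 2558 at 0 h and 2637 to 2864 at 4 h. Most of that sum was CCND1, with means of 1676 CPM at 0 h and 1976 CPM at 4 h. In the slope test described below, FLI1, NR0B1, NKX2-2 and BCL11B fell, CCND1 and EWSR1 rose, and STEAP1, PRKCB and LIPI did not pass. FLI1 went from a mean of 80.0 CPM at 0 h to 20.4 CPM at 4 h. Of 10 leukocyte, epithelial and endothelial markers, 0 reached a mean of 10 counts. The highest mean was 3.58 counts and 2 were at 0, with a summed level of 0.621 to 0.867 CPM at 0 h and 1.42 to 2.24 CPM at 4 h. The action of the drug was checked on MYC, a transcript of short life, which went from 134 CPM at 0 h to 8.36 CPM at 4 h.

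The 3′ UTR of each member was searched in its GENCODE v44 canonical transcript for 3 patterns on the sense strand, counting overlapping matches. These were the AU-rich pentamer ATTTA, the longer AU-rich nonamer TTATTTATT, which itself holds ATTTA, and the Pumilio pattern TGTANATA. Of 11392 tested genes with a 3′ UTR in that annotation, 74.8% held the pentamer, 10.1% the nonamer and 31.4% the Pumilio pattern. The sites shown are the only nonamers among the members, the Pumilio matches of the members with the steepest loss and of CRY1, whose level moved little, and the pentamers of NR1D1. They are RNA letters of the sense strand, 5′ to 3′, and the capitals mark the match.
PER1 nonamer, bases 343 to 351 of a 596 nt 3′ UTR: ggggcugcacUUAUUUAUUgcggggagaca
CLOCK nonamer, bases 2336 to 2344 of 7512 nt: ugugccucauUUAUUUAUUggcaauaccua
BHLHE40 Pumilio match, bases 1406 to 1413 of 1631 nt: agguguaaaauUGUAAAUAuuuuuaucuau
NR1D1 Pumilio match, bases 155 to 162 of 290 nt: cugagccuucuUGUAAAUAccugccucccu
NR1D1 first pentamer, bases 101 to 105 of 290 nt: aaccagaaucuuAUUUAuauuguuauaaaa
NR1D1 second pentamer, bases 204 to 208 of 290 nt: cccuccuccccuAUUUAaaccacucugucu
CRY1 first Pumilio match, bases 184 to 191 of 638 nt: aauugguaauuUGUAUAUAaagaacuuggc
CRY1 second Pumilio match, bases 219 to 226 of 638 nt: aauuugcuuaaUGUAAAUAuaaacagucac

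Pentamers were spread unevenly over the members. CLOCK had 26 in its long 3′ UTR and NR1D2 had 14 in 3198 nt (4.38 per kb). PER3 had 6 in 2422 nt, PER2 had 5 in 2331 nt, and CRY1 and CRY2 had 2 each. NR1D1 had 2 in only 290 nt, which made 6.90 per kb against a median of 1.78 per kb over the tested genes, and PER1 had 1. ARNTL and BHLHE40 had none in 510 and 1631 nt. The Pumilio pattern matched 2 times in CRY1 and NR1D2, once in PER2, PER3, CLOCK, NR1D1 and BHLHE40, and nowhere in PER1, CRY2 or ARNTL. A match is a description of the letters, and binding was not measured.

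Before the drug, the members differed widely in level. Levels between genes were compared as CPM per kilobase of the canonical transcript, with library sizes scaled by the trimmed mean of M-values (TMM). CRY1 stood highest at 25.5 ± 1.74 CPM per kb (SD, n = 3), followed by its paralog CRY2 at 6.97 ± 0.809. PER1, CLOCK, NR1D2 and BHLHE40 formed a middle group at 3.81 ± 0.543, 3.48 ± 0.348, 3.39 ± 0.647 and 2.88 ± 0.330 CPM per kb, in which each neighbour overlapped the next over the replicates. ARNTL at 1.33 ± 0.391 and NR1D1 at 0.812 ± 0.140 CPM per kb also overlapped each other. PER2 at 0.516 ± 0.0445 and PER3 at 0.259 ± 0.0697 CPM per kb were lowest on this scale and did not overlap. With the median length of each gene's transcripts in place of the canonical one, NR1D1 was lowest at 0.812 CPM per kb, PER3 stood above PER2, at 1.08 against 0.874, and CLOCK above PER1, at 48.9 against 28.4, so these orders rest on the transcript chosen.

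**Figure D1:**
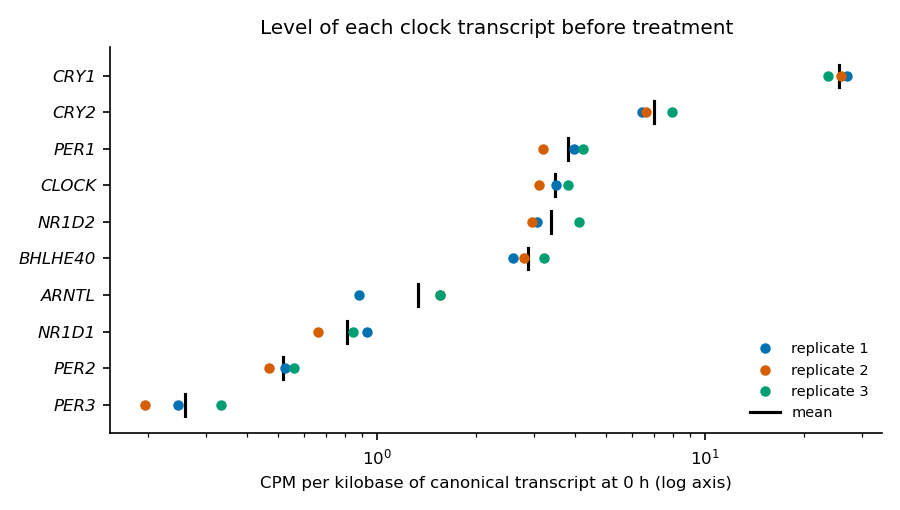
Level of the 10 clock transcripts at 0 h in CPM per kilobase of the canonical transcript, on a log axis, with 1 point per library and the mean of the 3. CRY1 lies highest at a mean of 25.5 and PER3 lowest at 0.259 CPM per kb.

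After the drug, the fitted rates of the clock transcripts ran from −0.98 to 0.090 log2 per hour, and no grouping of them was tested. The rate of change was taken as the slope of log2 level on hours over all 12 libraries, from edgeR's quasi-likelihood test with Benjamini-Hochberg adjustment over 12032 genes. At an adjusted p below 0.05, 6 of the 10 members fell and 0 rose, where 32.1% of all tested genes fell and 30.7% rose. The 6 were BHLHE40, NR1D1, PER1, NR1D2, CRY2 and CLOCK, and the other 4 were PER2, PER3, CRY1 and ARNTL. With replicate number as a block, ARNTL and CRY1 passed as well, which made 8 members, where 34.8% of all genes fell. The count was also 8 with library totals as the scale (CRY1 and ARNTL added) and 9 with GAPDH and ACTB as the scale (PER2 added too), which moved the median slope of all genes to −0.030 and −0.13. The shares of all genes that fell on these scales are not given here, so the 8 and 9 cannot be read against them. The median slope of the members was −0.12 log2 per hour and that of all tested genes 0.0093. Slopes are relative to the other poly(A) RNA, since no spike-in was used, and a half-life is given as −1 divided by the slope on the TMM scale. With GAPDH and ACTB as the scale, the slopes were −0.25 for CLOCK, −0.26 for CRY2 and NR1D2, −0.42 for PER1, −1.07 for NR1D1 and −1.11 for BHLHE40. These are steeper, so the half-lives of these members are shorter there, and the replicate ranges do not cover the choice of scale.

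**Figure D2:**
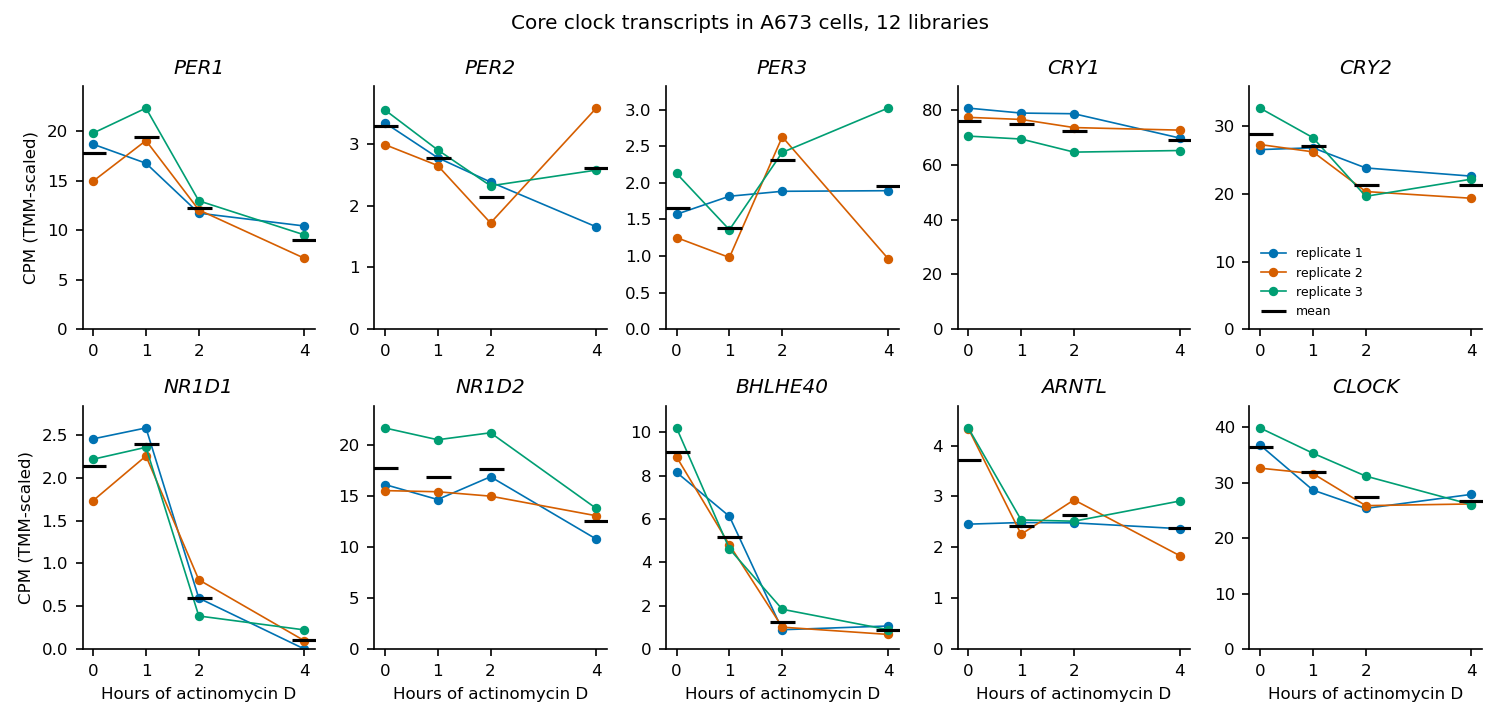
Level of each clock transcript in TMM-scaled CPM (linear axis) against hours of 5 µM actinomycin D. Each library is 1 point, a line joins the points of each replicate, and a bar marks the mean of the 3. BHLHE40 and NR1D1 drop to 9.69% and 5.00% of their 0 h means at 4 h, while CRY1 stays at 90.9%.

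BHLHE40 and NR1D1, repressors from different protein families, had the steepest loss of the set. BHLHE40 measured 8.15, 8.86 and 10.2 CPM in replicates 1, 2 and 3 at 0 h, 6.12, 4.81 and 4.62 CPM at 1 h, 0.893, 1.01 and 1.84 CPM at 2 h, and 1.07, 0.677 and 0.895 CPM at 4 h. Each time point up to 2 h lay wholly below the one before it, and the libraries of 4 h overlapped those of 2 h. In percent of the 0 h mean, BHLHE40 stood at 57.1 at 1 h, 13.7 at 2 h and 9.69 at 4 h. Its slope was −0.98 log2 per hour (SE 0.099, adjusted p = 2.99e-07), and −0.90, −1.07 and −0.97 in the single replicates, a half-life of 1.02 h with a replicate range of 0.930 to 1.11 h. Counted from the steepest fall, it ranked 54 among the 12032 genes. BHLHE40 was the only member called lower at 1 h against 0 h, at −0.81 log2 (adjusted p = 0.0417), where 2.24% of all genes were lower and 0.349% higher. That call rests on all 3 replicates, since the adjusted p was 0.172, 0.448 and 0.185 without replicate 1, 2 and 3.

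NR1D1, the REV-ERBα receptor, kept its level for an hour and then nearly vanished. It measured 2.46, 1.73 and 2.22 CPM at 0 h and 2.58, 2.26 and 2.36 CPM at 1 h, so these groups overlapped. It then measured 0.595, 0.809 and 0.387 CPM at 2 h and 0, 0.0967 and 0.224 CPM at 4 h, each group wholly below the one before. These are few reads, 25, 18 and 25 counts at 0 h and 0, 1 and 2 at 4 h. Pooled over replicates, 68 counts at 0 h and 3 at 4 h gave 5.06% of the starting level, with a 95% exact interval of 1.02 to 15.4% that covers counting error only. That is a 19.7-fold lower level, with an interval of 6.48 to 98.1. The slope was −0.93 log2 per hour (SE 0.149, adjusted p = 4.51e-05), with −1.10, −0.81 and −0.90 in the single replicates and a half-life of 1.08 h. Genes were tested if their mean count over all libraries was 10 or more. NR1D1, with a mean of 13.75, met this only through its libraries of 0 and 1 h. No library of 2 or 4 h held more than 8 counts. With no filter, the slope was −0.94 (adjusted p = 1.32e-05 in the same test).

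The loss of NR1D1 was first called between 1 and 2 h. At 1 h it was 0.17 log2 above 0 h (adjusted p = 0.880), at 2 h it was 1.99 log2 below 1 h (log2 change −1.99, adjusted p = 0.000932), and at 4 h it was a further 2.33 below 2 h (log2 change −2.33, adjusted p = 0.0134). The gene at chr17:40092793-40100589 lies on the minus strand and its end overlaps THRA on the plus strand, with 14.8% of the 50-base runs of its transcript lying on the opposite strand of THRA exons. How the counting treated strand is not given in the sources used here. THRA itself, a thyroid hormone receptor, had a slope of 0.015 (adjusted p = 0.822), and its part in the NR1D1 counts was not tested.

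NR1D2, the REV-ERBβ receptor and paralog of NR1D1, started higher and lost little. It measured 16.1, 15.5 and 21.6 CPM at 0 h, 14.6, 15.4 and 20.5 CPM at 1 h, 16.9, 15.0 and 21.2 CPM at 2 h, and 10.8, 13.1 and 13.8 CPM at 4 h. The first 3 time points overlapped one another and the libraries of 4 h lay below all others. The slope was −0.12 log2 per hour (SE 0.045, adjusted p = 0.0284), a half-life on the TMM scale of 8.38 h with a replicate range of 6.40 to 15.6 h. The adjusted p was 0.0824 without replicate 1 and 0.0578 without replicate 2. The change from 2 to 4 h was −0.49 log2 with an adjusted p of 0.0523, and 0.000245 with the replicate block.

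The REV-ERB receptors were therefore compared directly, as the ratio of their counts within each library, which does not depend on the scaling. NR1D1 stood at 0.125 ± 0.0268 of NR1D2 at 0 h (SD, n = 3) and at 0.0123 ± 0.00746 at 4 h. These ratios used counts plus 0.5. With 0, 1 and 2 counts of NR1D1 at 4 h, the ratio there and the size of the change depend on that offset. The log2 ratio changed by −0.98 per hour, with −1.32, −0.93 and −0.69 in the single replicates. An exact two-sided permutation test that permuted times within replicate number (13824 arrangements) gave p = 0.00109, or 0.00651 adjusted over the 6 pairs of related members tested. With an offset of 0.1 counts in place of 0.5, the change was −1.23 per hour and the adjusted p of this test 0.00564. Over 0, 1 and 2 h only, the change was −0.90 per hour with an adjusted p of 0.148 in the same exact test, which has 216 arrangements there, so that a single pair could not go below 0.0556 after adjustment.

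Among the PER genes, which encode the inhibitors that the CRY proteins join, PER1 was the one that fell over the whole course on the TMM scale. PER1 measured 18.7, 14.9 and 19.8 CPM at 0 h, 16.7, 19.0 and 22.3 CPM at 1 h, 11.7, 12.04 and 13.0 CPM at 2 h, and 10.4, 7.15 and 9.51 CPM at 4 h. Its mean stood at 109% of the 0 h mean at 1 h, 68.8% at 2 h and 50.7% at 4 h, and the groups at 0 and 1 h overlapped while those at 2 and 4 h lay below both. The slope was −0.28 log2 per hour (SE 0.048, adjusted p = 7.68e-05), a half-life of 3.57 h with a replicate range of 3.24 to 4.42 h. PER1 was lower at 2 h than at 1 h by a log2 change of −0.66 (adjusted p = 0.00806). From 2 to 4 h the change was −0.45 (adjusted p = 0.0551, and 0.00495 with the replicate block). Over 0, 1 and 2 h only, the slope of PER1 was −0.25 and did not pass (adjusted p = 0.0696).

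PER2 and PER3 were near the limit of what these libraries resolve. PER2 measured 3.34, 2.99 and 3.55 CPM at 0 h, 2.77, 2.65 and 2.90 CPM at 1 h, 2.38, 1.72 and 2.32 CPM at 2 h, and 1.66, 3.58 and 2.57 CPM at 4 h. The libraries of each hour up to 2 h lay below those of the hour before, and replicate 2 at 4 h stood as high as the untreated cells. The slope was −0.084 (adjusted p = 0.269), and the replicates ran apart at −0.25, 0.070 and −0.12. Without replicate 2 the slope was −0.18 with an adjusted p of 0.0381. PER2 also fell over 0, 1 and 2 h only (slope −0.29, adjusted p = 0.0432) and on the scale of GAPDH and ACTB (slope −0.22, adjusted p = 0.00937). At 2 h against 0 h the change was −0.62 log2 with an adjusted p of 0.0792, and 0.0313 with the replicate block.

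PER3 rested on 10 to 27 counts per library. It measured 1.57, 1.25 and 2.13 CPM at 0 h, 1.82, 0.981 and 1.36 CPM at 1 h, 1.89, 2.63 and 2.42 CPM at 2 h, and 1.89, 0.967 and 3.02 CPM at 4 h. The groups at 0 and 4 h overlapped, and the slope of 0.090 (SE 0.092, adjusted p = 0.413) was smaller than its error. The value has a further limit, since 17.5% of the 50-base runs of the PER3 transcript lie opposite exons of UTS2 and of a long noncoding gene.

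Within libraries, the ratio of PER1 to PER3 went from 10.7 ± 1.39 at 0 h to 5.19 ± 2.00 at 4 h (SD, n = 3), a change of −0.35 log2 per hour that was negative in 3 of 3 replicates. The exact permutation p was 0.0203 and 0.0548 after adjustment over the 6 pairs, so this difference between the genes did not pass. PER1 against PER2 changed by −0.18 per hour (exact permutation p = 0.0971, adjusted 0.146) and PER2 against PER3 by −0.17 (exact permutation p = 0.290, adjusted 0.348). A different rate among the PER transcripts was thus not shown at this depth.

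CRY1, the most abundant member, had the slope nearest to 0 on the TMM scale. It measured 80.7, 77.4 and 70.5 CPM at 0 h, 78.9, 76.6 and 69.4 CPM at 1 h, 78.7, 73.6 and 64.7 CPM at 2 h, and 69.8, 72.7 and 65.3 CPM at 4 h. The groups overlapped at all times, and within each replicate the value at 4 h was below that at 0 h. The slope was −0.035 log2 per hour (SE 0.019, adjusted p = 0.120), with −0.052, −0.024 and −0.031 in the single replicates. With the replicate block the adjusted p was 0.0165, and for 4 h against 0 h, at −0.14 log2, it was 0.174 without and 0.0193 with the block. The slope depended on the scale, at −0.075 with library totals (adjusted p = 0.00183) and −0.17 with GAPDH and ACTB (adjusted p = 1.79e-07), where the slope of PER3 was nearer to 0.

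CRY2, the other cryptochrome, fell. It measured 26.5, 27.3 and 32.6 CPM at 0 h, 26.8, 26.2 and 28.3 CPM at 1 h, 23.8, 20.3 and 19.6 CPM at 2 h, and 22.6, 19.3 and 22.2 CPM at 4 h. The libraries of 2 and 4 h lay below all of 0 and 1 h and overlapped each other, with means of 21.3 ± 2.24 and 21.4 ± 1.77 CPM (SD, n = 3). The slope was −0.12 log2 per hour (SE 0.030, adjusted p = 0.00257), a half-life on the TMM scale of 8.46 h with a replicate range of 6.65 to 15.3 h. The ratio of CRY1 to CRY2 went from 2.68 ± 0.461 at 0 h to 3.26 ± 0.434 at 4 h. Its change of 0.080 log2 per hour was positive in 3 of 3 replicates, with an exact permutation p of 0.0274 and 0.0548 after adjustment over the 6 pairs, and so did not pass.

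**Figure D3:**
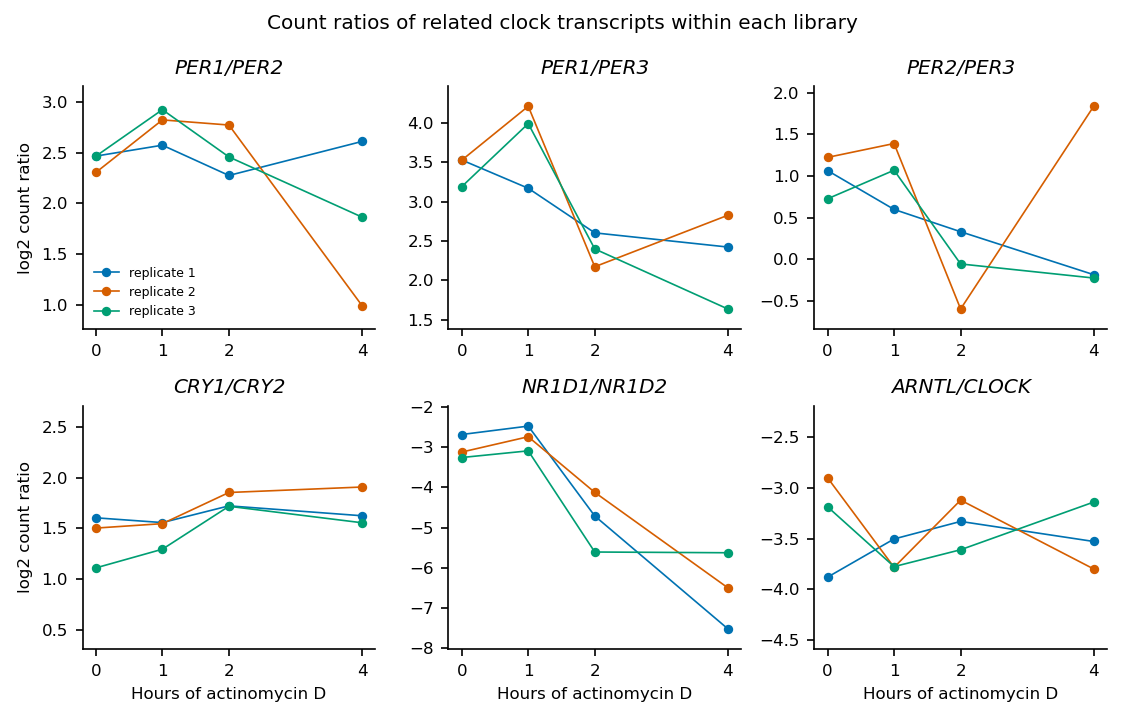
Ratio of counts plus 0.5 of related clock transcripts within each library (log axis) against hours of actinomycin D, with 1 point per library for the 6 pairs tested. NR1D1 over NR1D2 goes from a mean of 0.125 at 0 h to 0.0123 at 4 h, while ARNTL over CLOCK is at 0.104 and 0.0907.

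The activators CLOCK and ARNTL, at −0.11 and −0.14 log2 per hour, had shallower slopes than BHLHE40, NR1D1 and PER1, at −0.98, −0.93 and −0.28. The other inhibitors did not share this. NR1D2 and CRY2, both at −0.12, lay between the activators, and PER2, CRY1 and PER3, at −0.084, −0.035 and 0.090, lay above both. Differences in slope between activators and inhibitors were not tested. CLOCK, the larger partner of the pair, measured 36.8, 32.7 and 39.9 CPM at 0 h, 28.7, 31.7 and 35.4 CPM at 1 h, 25.4, 25.9 and 31.2 CPM at 2 h, and 27.9, 26.2 and 26.1 CPM at 4 h. All libraries of 2 and 4 h lay below those of 0 h. The slope was −0.11 log2 per hour (SE 0.028, adjusted p = 0.00211), a half-life on the TMM scale of 8.91 h with a replicate range of 6.51 to 11.4 h. The means of 2 and 4 h were close, at 27.5 and 26.7 CPM. The change from 1 to 2 h was −0.21 log2 with an adjusted p of 0.210, and 0.0312 with the replicate block.

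ARNTL, the partner of CLOCK, was much lower in count and more scattered. It measured 2.46, 4.34 and 4.35 CPM at 0 h, 2.49, 2.26 and 2.54 CPM at 1 h, 2.48, 2.93 and 2.51 CPM at 2 h, and 2.37, 1.84 and 2.91 CPM at 4 h. Replicate 1 at 0 h stood at the level of the treated libraries, and the 2 others stood above all of them. The slope was −0.14 log2 per hour (SE 0.065, adjusted p = 0.0672, and 0.0468 with the replicate block), with −0.014, −0.27 and −0.13 in the single replicates. ARNTL was lower at 4 h than at 0 h by a log2 change of −0.66 (adjusted p = 0.0346), but the adjusted p was 0.372 without replicate 2 and 0.0745 without replicate 3. Of ARNTL to CLOCK the ratio was 0.104 ± 0.0335 at 0 h and 0.0907 ± 0.0211 at 4 h, a change of −0.013 log2 per hour (exact permutation p = 0.865, also 0.865 adjusted).

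**Figure D4:**
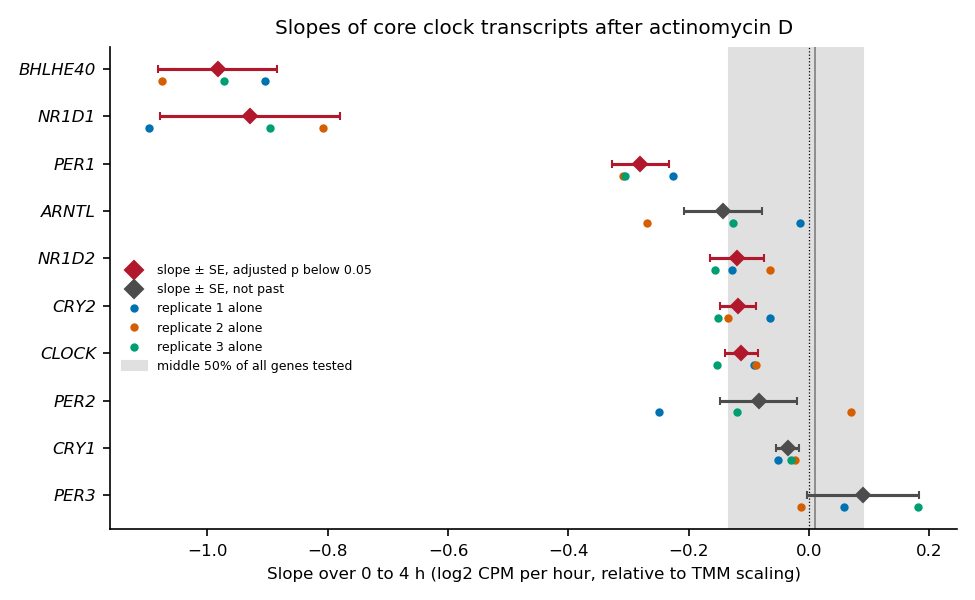
Slope of log2 level on hours for each clock transcript, with the fitted slope and its standard error and 1 point for each single replicate, beside the middle range of all 12032 tested genes (−0.13 to 0.089 log2 per hour, median 0.0093). BHLHE40, NR1D1 and PER1 lie below that range in every replicate.

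The time points showed when the members were lower. These comparisons share libraries and are not independent of each other. Against 0 h, 1 member was lower at 1 h, 5 at 2 h (BHLHE40, NR1D1, PER1, CRY2 and CLOCK) and 7 at 4 h, and 0 were higher at any of them, at adjusted p below 0.05. Over all tested genes 19.4% were lower and 10.8% higher at 2 h, and 31.6% were lower and 28.7% higher at 4 h, and the members' counts are to be read against these shares. The changes at 4 h were −4.16 log2 for NR1D1, −3.37 for BHLHE40, −0.99 for PER1, −0.66 for ARNTL, −0.50 for NR1D2, −0.45 for CLOCK and −0.44 for CRY2. For 6 members all libraries of 4 h lay below all of 0 h, which held for 33% of all genes, and for no member did they lie above, against 30.4% of all genes. From 1 to 2 h, 4 members were lower (BHLHE40, NR1D1, PER1 and CRY2) and 0 higher, where 12.5% of all genes were lower and 3.76% higher. From 2 to 4 h only NR1D1 was lower and none was higher, where 18.3% of all genes were lower and 12% higher, and 3 members were lower with the replicate block (NR1D1, PER1 and NR1D2), where 25.3% of all genes were. With 3 replicates, several of these calls needed every library. Leaving out 1 replicate left 3 members lower at 2 h than at 0 h, with PER1 lost without replicate 1 or 3 (adjusted p = 0.121 and 0.0546), CRY2 without 2 or 3 (0.0685 and 0.0933) and CLOCK without 1 or 2 (0.112 and 0.0721). From 1 to 2 h, PER1 was lost without replicate 1 or 2 (0.0524 and 0.0603) and CRY2 without any of them (0.0736, 0.236 and 0.165). From 2 to 4 h, NR1D1 was lost without replicate 1 or 2 (0.108 and 0.166), and at 4 h against 0 h NR1D2 was lost without the same replicates (0.119 and 0.0576).

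Over 0 to 4 h BHLHE40 and NR1D1 had slopes of −0.98 and −0.93, but these depended on the window. Over 0, 1 and 2 h only they were −1.28 and −0.70, and over 1, 2 and 4 h only −0.93 and −1.62. BHLHE40 changed by −0.81 log2 in the first hour, −2.04 in the next (adjusted p = 9.52e-05) and −0.52 from 2 to 4 h (adjusted p = 0.292), so most of its loss lay before 2 h. NR1D1 changed by 0.17, −1.99 and −2.33 over the same intervals. A joint test of departure from a straight line gave an adjusted p of 0.05004 for NR1D1, just above the threshold, 0.0551 for BHLHE40 and 0.286 for PER1, whose level at 1 h was also not below that at 0 h. No member passed at an adjusted p below 0.05, where 2.7% of all genes did. In the same test 3 members had an unadjusted p below 0.05. The share of all genes at that unadjusted threshold is not given here, so the 3 cannot be read against it. With the replicate block the adjusted p was 0.00302 for NR1D1, 0.00497 for BHLHE40 and 0.00615 for PER1, where 17.2% of all genes passed.

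The genes whose course was most like that of each member were picked from the 9978 genes whose mean count was 50 or more, by the root mean square difference of the mean log2 changes at 1, 2 and 4 h. BHLHE40 ran closest to C1orf74 (difference 0.12 log2), C15orf39 and JUN (both 0.15), JUN being an immediate early gene of the AP-1 factor. The nearest genes to NR1D1 were MSC at 0.39 and RPP38 at 0.41. Its own log2 changes had standard errors of 0.26, 0.34 and 0.49 at 1, 2 and 4 h. Distances of this size are therefore no measure of how distinct its course was. PER1 ran with CBFA2T2 at 0.042, SETD1A at 0.051 and HINFP at 0.058, all of which also stood no lower at 1 h than at 0 h on the mean. For CRY1 the nearest were SPG20 and UFL1, for CRY2 LPCAT1, SNHG17 and NOL9, for CLOCK RPRD1B, PBX3 and RAB11FIP2, and for NR1D2 MYO9A, ICT1 and KIAA1549. For PER2 they were TRHDE-AS1, ZNF587 and ZNF320, for PER3 PRKAR2B, GABPB2 and NMB, and for ARNTL FLJ10038, SNHG4 and NIPBL-AS1. Flat courses find close matches easily, and the likeness is over 3 points only.

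Around the members, 39 other clock genes were looked up, of which 32 had enough counts to test. Of these 21 fell, 5 rose and 6 did not pass, where 32.1% of all tested genes fell and 30.7% rose. Their median slope was −0.15 log2 per hour against 0.0093 for all tested genes. The 21 falls were negative under all 4 scalings tried, while the 5 rises were relative to the TMM scale and had negative slopes when libraries were scaled to GAPDH and ACTB, which moved the median slope of all genes to −0.13.

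The genes that carry the rhythm to D-box elements and outputs held the steepest loss in the whole set. Of 4 tested, 3 fell, where 32.1% of all tested genes did. NFIL3, the repressor E4BP4 that binds D-boxes and is itself a REV-ERB target, went from 19.5 ± 3.63 to 1.08 ± 0.160 CPM from 0 to 4 h (slope −1.11, adjusted p = 6.29e-09). NOCT, nocturnin, named for its night-time peak, went from 18.2 ± 2.18 to 3.56 ± 0.637 CPM (slope −0.65, adjusted p = 3.86e-07). The half-lives were 0.903 h and 1.54 h. TEF, a D-box activator, fell as well (slope −0.38, adjusted p = 0.00170). DBP, another D-box activator, had a slope of −0.15 on 11.2 counts per library and did not pass (adjusted p = 0.358). HLF and USP2 had too few counts.

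Among further members of the loops, 3 of 6 tested fell and 1 rose, where 32.1% of all tested genes fell and 30.7% rose. RORA, the receptor that activates ARNTL where REV-ERB represses it, had a slope of −0.34 (adjusted p = 0.00285) from 1.96 ± 0.456 CPM, and BHLHE41, the DEC2 paralog of BHLHE40, one of −0.23 (adjusted p = 0.0331) from 2.00 ± 0.506 CPM. TIPIN fell (slope −0.17, adjusted p = 4.98e-05) and its partner at the replication fork TIMELESS rose on the TMM scale (slope 0.12, adjusted p = 2.85e-05), but not when scaled to GAPDH and ACTB. The stand-ins of the activators, ARNTL2 for ARNTL and NPAS2 for CLOCK, had slopes of 0.052 and 0.038 and did not pass. ARNTL2 was at 23.8 ± 0.646 CPM at 0 h and 26.3 ± 2.49 CPM at 4 h.

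Of the transcripts of kinases and F-box proteins that act on clock proteins, 9 of 11 tested fell and 1 rose on the TMM scale. Over all tested genes 32.1% fell and 30.7% rose. GSK3B, a kinase acting on several clock proteins, had a slope of −0.36 (adjusted p = 4.73e-08), from 106.8 ± 5.15 to 40.6 ± 1.45 CPM, a half-life of 2.79 h, and the F-box gene FBXW7 one of −0.24 (adjusted p = 0.00130). Also falling were BTRC and FBXW11, which mark PER for breakdown, and the casein kinase genes CSNK2A2, CSNK1D, CSNK2A1 and CSNK1A1. CSNK2B rose on the TMM scale (slope 0.12), but not when scaled to GAPDH and ACTB, and GSK3A did not pass. FBXL21 had too few counts. CSNK1E was listed at 0 in all 12 libraries, which is not read as absence of its RNA, since how reads were assigned to genes is not known here.

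Of 11 coregulator genes, 6 fell and 3 rose, where 32.1% of all tested genes fell and 30.7% rose. The acetyltransferases CREBBP and EP300, coactivators of the CLOCK pair, had slopes of −0.47 and −0.41 and the deacetylase SIRT1 one of −0.40, with half-lives of 2.12, 2.42 and 2.48 h. KDM5A, KMT2A and NCOR1 fell less steeply. HDAC3, part of the corepressor that REV-ERB recruits, had a slope of 0.13 and NONO, an RNA-binding partner of PER, one of 0.077, both of them rises on the TMM scale that were negative when scaled to GAPDH and ACTB. WDR5 and SFPQ did not pass.

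**Figure D5:**
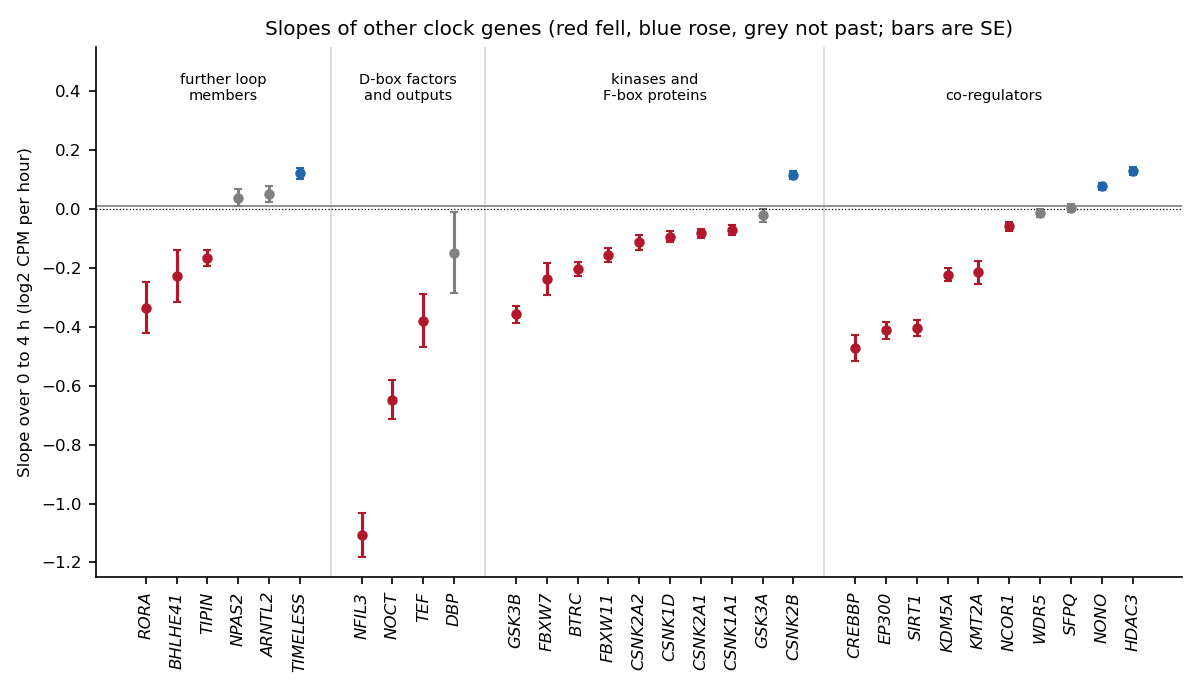
Slope of log2 level on hours with its standard error for 30 of the 32 other clock genes tested, grouped as further loop members, D-box and output genes, kinases and F-box genes, and coregulators. NFIL3 has the steepest fall at −1.11 log2 per hour, and the 4 plotted genes that rise on the TMM scale do not rise when scaled to GAPDH and ACTB.

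The 3′ UTR matches shown above stood beside steep and shallow slopes alike. The nonamer was in PER1, with a half-life of 3.57 h, and in CLOCK, with 8.91 h. The steepest member, BHLHE40, had no pentamer. The Pumilio match UGUAAAUA was in BHLHE40 and NR1D1. It was also in CRY1, PER2, PER3 and NR1D2, whose slopes were −0.035, −0.084, 0.090 and −0.12. Over all tested genes with a 3′ UTR, the pentamer was in 85.5% of the 3712 that fell and 69.6% of the other 7680. The nonamer was in 13.2% and 8.53% of them, and the Pumilio pattern in 45.6% and 24.5%. Longer 3′ UTRs hold more matches of any kind, and length was not adjusted for.

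The gene locations are those of GENCODE v44 on GRCh38, and the count table itself has no coordinates. PER1 lies at chr17:8140472-8156506 on the minus strand, PER2 at chr2:238244044-238290102 on the minus strand and PER3 at chr1:7784291-7845177 on the plus strand. CRY1 lies at chr12:106991364-107093549 on the minus strand and CRY2 at chr11:45847118-45883248 on the plus strand. ARNTL lies at chr11:13276652-13387266 on the plus strand and CLOCK at chr4:55427903-55546909 on the minus strand. NR1D2 lies at chr3:23945286-23980617 and BHLHE40 at chr3:4979437-4985323, both on the plus strand. On their own strand the transcripts shared no 50-base run with another gene, except 1.47% of the runs of PER2.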

How the data were processed

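Poly(A) RNA of shA673-1c cells was sequenced at 0, 1, 2 and 4 h of 5 µM actinomycin D, in 3 replicates. Unnormalized counts, 1 row for each gene symbol, were deposited by the authors, and the submitters' notes name FastQC, STAR and the build hg19. The counter, annotation and strand setting are not given in the sources used here. All 12 columns were matched to samples by title, 0 were left unmatched. Replicates of a time point differed beyond sampling noise (chi-square per degree of freedom 3.21 to 8.67).

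The members and the gene lists were chosen with earlier results of these data known. Genes whose mean count was 10 or more (12032) were fitted with edgeR 4.0.16 in R 4.3.3 (glmQLFit, glmQLFTest, TMM factors 0.924 to 1.05, biological coefficient of variation 0.0905), with time in hours as a number or as 4 groups, without a block, and p-values adjusted by Benjamini-Hochberg over all of them. Standard errors came from the F statistic. CPM used TMM-scaled library sizes. Ratios used counts plus 0.5. The fit was tested on simulated data. Named were all members, every other clock gene past the threshold, with values for up to 3 steepest falls and 2 steepest rises per list, and the 3 genes nearest to each member. DBP, ARNTL2, NPAS2 and genes without a call or at 0 were added to that rule with their values known. Some genes that the rule names are counted but not reported here by name.

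Replicate numbers pair the samples, since deviations from the time means correlated at 0.283 to 0.597 between same-numbered libraries (mean 0.412 over 18 pairs) and at −0.393 to 0.078 between others (mean −0.203 over 36 pairs). Deviations of the replicates of a time cancel out, so the negative mean between others largely follows from the centring. The main fit left this pairing out. The alternatives were other scalings, filters, DESeq2 1.42.0, the replicate block, fewer time points and leaving out each replicate. Sequences came from GENCODE v44.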

Additional observations from a re-analysis of the deposited data

How the results depend on the processing

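The limits first. No spike-in and no time-matched untreated cells were sequenced, so all rates are relative to the other poly(A) RNA. NR1D1, PER3, ARNTL and PER2 had few counts, which limits what their slopes can show. The 6 members that fell had negative slopes under all scalings, filters, tests, blocks and left-out replicates tried, except NR1D2, whose slope was 0.0067 over 0, 1 and 2 h only. Over those hours PER1 did not pass (adjusted p = 0.0696) and PER2 did (0.0432), and over 1, 2 and 4 h CLOCK did not (0.0710). The slopes of CRY2 and CLOCK over 0, 1 and 2 h were −0.21 and −0.19.

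Of 718 member results under alternatives, 630 kept direction and side of the threshold, 26 kept direction but no longer passed, 39 newly passed and 23 changed sign. The replicate block gave 60 of 70 the same call and 10 newly passed, all given beside their results; it changed no other call. The cause of the changes was not tested.

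Of members lower at 2 h than at 0 h, scaling to GAPDH and ACTB gave 8. Of members lower at 4 h than at 2 h, library totals, DESeq2 size factors, no filter and the replicate block gave 3 each, the DESeq2 test 2 and GAPDH with ACTB 4. NR1D1 had no adjusted p in the DESeq2 test of that comparison and of the departure. Departure from a straight line was called for 2 members with library totals, 1 with the DESeq2 test, 1 with no filter and 3 with the replicate block. Of the other clock genes, 0 rose when scaled to GAPDH and ACTB, and 10 fell over 0, 1 and 2 h only. Leaving out 1 replicate gave 0 members lower at 1 h against 0 h, 3 at 2 h against 0 h, 2 to 3 at 2 h against 1 h and 0 to 2 at 4 h against 2 h. Apart from the replicate block, the shares of all genes under these alternatives are not given here, so these counts cannot be read against them.

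The PER1 to PER3 ratio, at −0.35 per hour, passed when times were permuted without the replicate block (permutation test, adjusted p = 0.0357). Over 0, 1 and 2 h only, the PER1 to PER2 ratio changed by 0.045 and the NR1D1 to NR1D2 ratio by −0.90, which no longer passed in a test with 216 arrangements, whose smallest adjusted p for a single pair is 0.0556. The ARNTL to CLOCK ratio ranged from −0.056 to 0.062 without 1 replicate. With median transcript lengths the levels were 91.8 CPM per kb for CRY1, 52.1 for CRY2, 28.4 for PER1, 48.9 for CLOCK, 8.96 for NR1D2, 6.64 for BHLHE40, 2.19 for ARNTL, 0.874 for PER2, 1.08 for PER3 and 0.812 for NR1D1, then the lowest.

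Apart from that slope of NR1D2, the sign changes were in log2 changes that did not pass. Scaling to GAPDH and ACTB gave −0.046 for the slope of PER3, −0.33 for PER3 at 4 h against 0 h, −0.0083 for ARNTL and −0.062 for NR1D2 at 2 h against 1 h, and −0.30 for CRY2 at 4 h against 2 h. CRY2 in that comparison was also at −0.079 with library totals, −0.0057 with DESeq2 size factors, −0.0060 with the DESeq2 test, −0.0061 with a mean of 1 count as the filter and −0.0098 with none. NR1D2 at 2 h against 0 h was at 0.0042 with DESeq2 size factors and 0.0049 with the DESeq2 test. Without 1 replicate, NR1D2 there ranged from −0.041 to 0.013, PER3 from −0.53 to 0.00079 at 1 h against 0 h and from −0.038 to 0.41 at 4 h against 0 h, and ARNTL from −0.0093 to 0.18 at 2 h against 1 h. At 4 h against 2 h, ARNTL ranged from −0.40 to 0.081, CLOCK from −0.13 to 0.056, CRY2 from −0.099 to 0.052, PER2 from −0.15 to 0.61 and PER3 from −0.71 to 0.20.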
